A study of Mus musculus with 4 samples.

Results

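The genes described here encode the LIF receptor and the JAK-STAT3 pathway below it, together with transcripts that STAT3 is known to induce. They were chosen by gene name as a set of 9 genes, of 56748 genes listed in the deposited tables, and comprise Lifr, Il6st, Jak1, Stat3, Socs3, Pim1, Pim3, Gbx2 and Spp1. RNA was taken from E14 cells, a feeder-free line of mouse embryonic stem cells (mESCs), and 2 WT libraries (WT1, WT2) were compared with 2 libraries of Npac knockout cells (KO1, KO2), separate lines with 1 library each, which the study made by CRISPR-Cas9 with guides to exon 3, puromycin selection and colony picking. All cells, WT and KO, were grown on gelatin in serum medium that contained leukemia inhibitory factor (LIF), and no library came from cells without LIF. The labels name WT1 and WT2 only as samples of WT cells, so the spread between them may be technical. These WT libraries were less alike (Pearson correlation 0.967 of log2 expression over the tested genes) than KO1 and KO2 (0.983).

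LIF binds the LIF receptor (Lifr), which pairs with the signal transducer gp130, the product of Il6st. The kinase JAK1 on these chains then phosphorylates STAT3, which enters the nucleus and switches on target genes, among them Socs3, whose product blocks the same receptor and kinase in a feedback loop. In mESCs in serum this pathway is known for holding cells in the self-renewing, undifferentiated state. RNA-seq measures transcripts and not the phosphorylation of STAT3, so what follows concerns RNA levels alone. In bulk RNA, fewer cells that express a gene and less RNA per cell cannot be told apart.

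Total counts lay between 15850805 and 16965120 per library. Npac itself, listed as Glyr1, had 3961 and 3115 reads in WT1 and WT2 and 744 and 888 reads in KO1 and KO2, which leaves 22.7% of the WT level. The study reported that qPCR found its mRNA lost and that Western blot found no protein in either KO clone. Reads over the whole gene are a different measure from both. All 10 ES cell markers were read in every library, with a summed level of 6089 to 7597 CPM (TMM-normalized counts scaled to library size) in WT and 5260 to 5646 CPM in KO cells. Of these, 2 passed the test, Zfp42 down and Klf2 up, both on chromosome 8, beside 21.7% of all genes tested. Both KO libraries lay below both WT libraries for 5 of the 10 and above them for 3, beside 32.5% and 33.2% of all genes tested. Fibroblast markers summed to 41.1 to 76.4 CPM in WT and 50.4 to 60.4 CPM in KO cells, 6 of 10 had at most 10 reads in any library, and Col3a1 and Dcn had 0. These sums hid opposite directions. Col1a1, on chromosome 11, rose from 5.57 and 9.62 CPM to 18.3 and 18.8 CPM (log2 fold change 1.29, edgeR adjusted p = 0.0308). Col1a2 had 3 and 5 reads in WT and 18 and 16 reads in KO cells. Its log2 fold change of 2.06 did not pass (edgeR adjusted p = 0.0515). Thy1 and Pdgfrb had lower means in KO cells, but their WT and KO libraries overlapped and neither passed (edgeR adjusted p = 0.231 and 0.432). Extraembryonic endoderm markers summed to 32.1 to 33.3 CPM in WT and 21.0 to 28.5 CPM in KO cells, and 3 of 10 had at most 10 reads. Of 7 tested, Sox7 alone passed, falling from 17.9 and 9.27 CPM to 0.257 and 0.924 CPM (log2 fold change -4.48, edgeR adjusted p = 0.00434). Gata4, Gata6, Pdgfra and Cubn had both KO libraries above both WT libraries, beside 33.2% of all genes tested. Some rested on few reads, with 3 to 14 reads of Cubn per library. Dab2 had both KO libraries below both WT libraries, and Sox17 overlapped. The part of these other cell types in the results was not tested. Genes on chromosome 11, which carries Stat3 and Socs3, were higher as a group in both KO libraries, by a median log2 difference of 0.51 in KO1 and 0.48 in KO2, against -0.20 to -0.0041 on the autosomes other than 8 and 11. On chromosome 8 the median difference was 0.51 in KO1 and 0.52 in KO2.

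All 9 genes had a lower mean in Npac KO cells, and Lifr, Stat3 and Pim3 were down-regulated, that is, past both thresholds used in the study, an adjusted p of 0.05 and a fold change of 1.5. Over all 18157 genes tested, 10.7% were down-regulated and 11% up-regulated, against 3 and 0 of these 9. In 8 of the 9 genes both KO libraries lay below both WT libraries, a pattern that 32.5% of all tested genes showed, while 33.2% showed the reverse. The exception was Il6st, whose WT and KO libraries overlapped. The median log2 fold change was -0.62 over the 9 genes and 0.0015 over all genes tested.

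**Figure D1:**
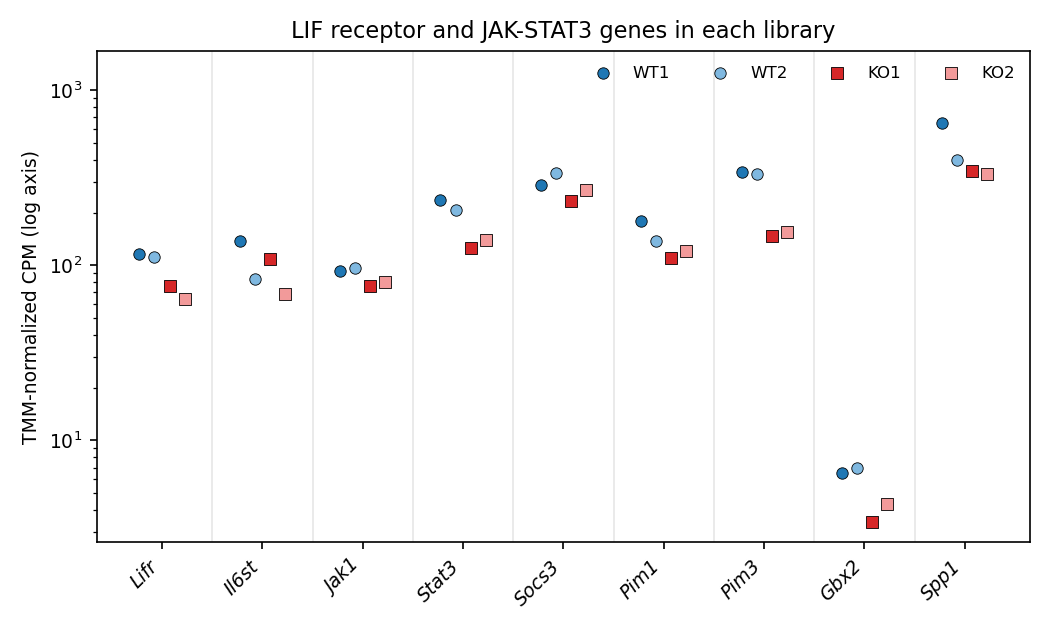
TMM-normalized CPM (log axis) of each of the 9 genes in the 4 libraries, with circles for WT and squares for Npac KO cells. Both squares lie below both circles for every gene other than Il6st, and the gap is widest for Pim3, at 334 to 341 CPM in WT and 147 to 155 CPM in KO cells.

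Lifr (chromosome 15, 7120095 to 7226970, plus strand, as the deposited table lists it) encodes the ligand-specific chain of the LIF receptor. Here and for the genes that follow the listed positions are of a build that the table does not name. Its level was 117 CPM in WT1, 112 CPM in WT2, 75.8 CPM in KO1 and 64.4 CPM in KO2. The WT libraries differed little from each other, and the higher KO library held 67.6% of the lower WT library. The log2 fold change was -0.71 (SE 0.18, edgeR adjusted p = 0.0305), from 114 ± 3.27 CPM in WT to 70.1 ± 8.04 CPM in KO cells (SD, n = 2 each). With a KO library left out Lifr no longer passed, at -0.84 without KO1 (adjusted p = 0.157, edgeR) and -0.58 without KO2 (adjusted p = 0.349), where a single KO library remained.

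Il6st (chromosome 13, 112600604 to 112646620, plus strand) encodes gp130, the chain that LIF shares with interleukin-6 and its relatives. Its level was 137 CPM in WT1, 83.8 CPM in WT2, 109 CPM in KO1 and 68.6 CPM in KO2. The libraries numbered 1 were above those numbered 2 in both genotypes, and KO1 exceeded WT2. The log2 fold change was -0.32 (SE 0.30, edgeR adjusted p = 0.479), with a 95% interval from -1.01 to 0.38, so neither a fall by a factor of 2 nor a small rise lay outside it. Its direction depended on WT1, without which it was 0.053, while without WT2 it was -0.63. Each of these values rests on a single WT library.

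Jak1 (chromosome 4, 101009564 to 101122479, minus strand) encodes the kinase that associates with gp130. Its level was 92.7 CPM in WT1 and 97.1 CPM in WT2, against 75.9 CPM in KO1 and 80.1 CPM in KO2. The groups did not overlap, but the difference was small and the log2 fold change of -0.28 (SE 0.17, 95% interval -0.68 to 0.12) did not pass (edgeR adjusted p = 0.269).

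Stat3 (chromosome 11, 100775924 to 100830366, minus strand) encodes the transcription factor that carries the signal to the nucleus. Its level was 235 CPM in WT1, 206 CPM in WT2, 125 CPM in KO1 and 139 CPM in KO2. Both KO libraries were well below both WT libraries, and KO cells held 60.0% of the level in WT cells. Stat3 had a log2 fold change of -0.74 (SE 0.18, edgeR adjusted p = 0.0265). It was -0.67 without KO1 (adjusted p = 0.262, edgeR) and -0.80 without KO2 (adjusted p = 0.172), and so no longer passed with 1 KO library. The fall of Stat3 went against its chromosome. Of 1455 genes tested on chromosome 11, 3.99% were down-regulated and 26.7% up-regulated. With the median of each chromosome removed from each KO library, the log2 fold change of Stat3 was -1.23 (SE 0.18, edgeR adjusted p = 0.00628).

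Socs3 (chromosome 11, 117856905 to 117860873, minus strand), the feedback inhibitor, is among the best known direct targets of STAT3. Its level was 286 CPM in WT1, 337 CPM in WT2, 234 CPM in KO1 and 268 CPM in KO2. The KO libraries were lower, but KO2 reached 93.7% of WT1. A log2 fold change of -0.31 (SE 0.19, 95% interval -0.75 to 0.13) did not pass (edgeR adjusted p = 0.265), and it was -0.46 without WT1 and -0.19 without WT2. Socs3 also lies on chromosome 11, and with the chromosome medians removed its log2 fold change was -0.81 (SE 0.19, edgeR adjusted p = 0.026), past both thresholds. Whether Socs3 is counted as down-regulated therefore turned on that setting.

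The promoters of the 3 down-regulated genes and of Socs3 are shown because STAT dimers recognise the letters TTCNNNGAA, which read the same on both strands. RefSeq start sites on build GRCm38.p6 gave 12 windows for the 9 genes, each from 250 bases before to 50 bases after a start, and 1 window held these letters, that of Socs3. Of all 32851 such windows, 8.30% held them, and 1.15% held the stricter TTCCNGGAA, a subset of the first. Shown 5′ to 3′ is the stretch before each start that is free of annotated exons, in capitals where the letters match. The Socs3 stretch lies at chr11:117969452-117969616 on the minus strand, and its match TTCTTAGAA begins 154 bases before the start. The other stretches lie at chr11:100939541-100939790 (Stat3, minus strand), chr15:88861944-88862185 (Pim3, plus strand) and chr15:7129322-7129558 (Lifr, plus strand, the first of 2 starts).
Socs3: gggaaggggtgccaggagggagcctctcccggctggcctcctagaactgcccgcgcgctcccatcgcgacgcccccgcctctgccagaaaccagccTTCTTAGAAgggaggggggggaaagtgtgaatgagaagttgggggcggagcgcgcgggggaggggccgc
Stat3: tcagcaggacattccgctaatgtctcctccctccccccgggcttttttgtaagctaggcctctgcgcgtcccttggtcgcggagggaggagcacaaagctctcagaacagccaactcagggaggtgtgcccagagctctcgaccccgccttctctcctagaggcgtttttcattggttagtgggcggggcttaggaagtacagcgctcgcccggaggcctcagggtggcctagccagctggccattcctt
Pim3: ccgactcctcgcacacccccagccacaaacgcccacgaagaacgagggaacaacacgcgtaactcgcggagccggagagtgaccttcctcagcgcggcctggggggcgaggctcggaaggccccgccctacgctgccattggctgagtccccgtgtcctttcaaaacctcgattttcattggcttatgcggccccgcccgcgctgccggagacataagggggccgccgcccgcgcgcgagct
Lifr: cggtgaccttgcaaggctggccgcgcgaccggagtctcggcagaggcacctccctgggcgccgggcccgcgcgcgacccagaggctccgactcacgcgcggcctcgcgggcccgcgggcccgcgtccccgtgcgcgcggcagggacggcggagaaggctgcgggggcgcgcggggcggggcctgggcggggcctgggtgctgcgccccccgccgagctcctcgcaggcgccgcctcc
The second Lifr start and the windows of Il6st, Jak1, Pim1, Gbx2 and Spp1 held no match either. A match is a description of the letters and not of binding, and sites outside these windows were not searched.

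Pim1 (chromosome 17, 29709727 to 29715086, plus strand) and Pim3 (chromosome 15, 88746389 to 88749929, plus strand) encode related serine/threonine kinases induced by STAT3, which favour survival and self-renewal. Of the 9 genes, Pim3 had the log2 fold change furthest from 0. Its level was 341 CPM in WT1, 334 CPM in WT2, 147 CPM in KO1 and 155 CPM in KO2. The spread within each genotype was a few per cent of the level, and both KO libraries held under 46.6% of the lower WT library. The log2 fold change was -1.16 (SE 0.17, edgeR adjusted p = 0.00551), a fold change of 2.23, and it lay between -1.18 and -1.13 as each library was left out, past both thresholds each time. Pim1 was at 179 CPM in WT1, 137 CPM in WT2, 110 CPM in KO1 and 121 CPM in KO2. It differed more between the WT libraries than between the KO libraries, and its log2 fold change of -0.45 (SE 0.20, 95% interval -0.91 to 0.0099) did not pass (edgeR adjusted p = 0.14). With a single WT library kept, it was -0.27 without WT1 and -0.63 without WT2. Pim2, the third gene of the family, had the opposite sign, with 8.97 and 19.9 CPM in WT1 and WT2 and 30.2 and 29.4 CPM in KO1 and KO2, and a log2 fold change of 1.04 (SE 0.36, edgeR adjusted p = 0.0758) that did not pass.

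Gbx2 (chromosome 1, 89855678 to 89858901, minus strand) encodes a homeobox factor that is a STAT3 target in mESCs. Its counts were 100 (WT1), 121 (WT2), 53 (KO1) and 75 (KO2) reads, or 6.55, 6.93, 3.41 and 4.33 CPM. This was the lowest level of the set, and the exact 95% Poisson interval of the KO1 count ran from 39.7 to 69.3 reads, below that of WT1, from 81.4 to 122 reads, while that of KO2, from 59.0 to 94.0 reads, overlapped it (counting error only). Its log2 fold change was -0.80 (SE 0.37, 95% interval -1.65 to 0.052), larger in size than that of Stat3 but less precise (edgeR adjusted p = 0.155). The antisense RNA D130058E05Rik overlaps Gbx2 over 964 bases, and if strand was ignored in counting, reads in the shared part cannot be told apart.

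Spp1 (chromosome 5, 104582984 to 104588916, plus strand) encodes osteopontin, a secreted phosphoprotein that binds integrins. Its level was 646 CPM in WT1, 402 CPM in WT2, 346 CPM in KO1 and 334 CPM in KO2. The KO libraries were close together and WT1 stood well above WT2. For Spp1 the log2 fold change was -0.62 (SE 0.25, edgeR adjusted p = 0.108). WT1 set its size, since it was -0.27 without WT1 and -0.93 without WT2, with a single WT library left each time.

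**Figure D2:**
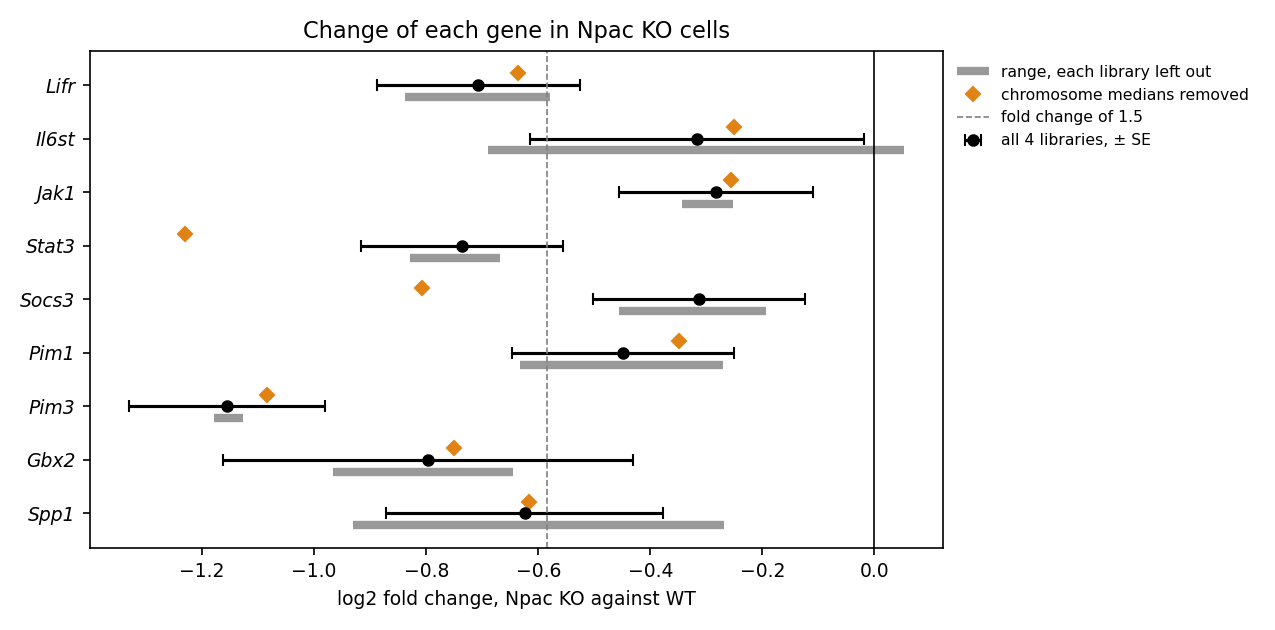
Log2 fold change of each gene in Npac KO against WT cells with its standard error (black), the range as each library is left out (grey bar) and the value with chromosome medians removed (orange diamond). Pim3 has the narrowest grey bar beyond the 1.5-fold line, from -1.18 to -1.13, the bar of Il6st crosses 0, and the diamonds of Stat3 and Socs3 lie at -1.23 and -0.81.

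Levels between genes were compared as FPKM, which divides by gene length. In WT cells the order was Spp1 (316 ± 104 FPKM, SD, n = 2), Pim3 (138 ± 2.39), Socs3 (107 ± 12.3), Pim1 (46.5 ± 8.78), Stat3 (23.0 ± 2.11), Jak1 (13.0 ± 0.412), Lifr (10.5 ± 0.315), Il6st (9.87 ± 3.37) and Gbx2 (3.07 ± 0.118). The STAT3 targets other than Gbx2 thus stood above the receptor chains, the kinase and Stat3 itself. In KO cells the order had 2 exchanges of neighbours. Socs3 (85.8 ± 7.47 FPKM) stood above Pim3 (61.7 ± 1.67), with no overlap of the libraries in either genotype. Socs3 lies on chromosome 11, where the median log2 difference was 0.51 in KO1 and 0.48 in KO2. FPKM were not adjusted for it, and whether the exchange would remain after such a removal was not tested. Il6st (7.91 ± 2.60) stood above Lifr (6.44 ± 0.803), but the libraries of these neighbours overlapped in both genotypes.

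For Lifr and for Socs3, the tested genes with the most alike profile were sought by the Euclidean distance of centred log2 CPM over the 4 libraries, among 11684 genes with a mean of at least 100 reads. Nearest to Lifr were Ccnj (distance 0.0279), H3f3a (0.0511) and Hk2 (0.0553). Nearest to Socs3 were Agap3 (0.0172), Isca1 (0.0255) and Eif4e3 (0.0397). With 4 libraries such likeness says little more than that the fold change and the spread were close.

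Of 57 further genes of the pathway, listed by role, 54 had enough reads to be tested, and 13 were down-regulated and 4 up-regulated. They fell unevenly over the lists. The list of other STAT3 response genes held 12 of the 17, while the cytokines and receptors held 2, the other JAKs and STATs 1 and the negative regulators 2, against 21.7% of all genes tested. These lists, like the set itself, were written with earlier results of these libraries known, and are described here and not tested as lists.

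**Figure D3:**
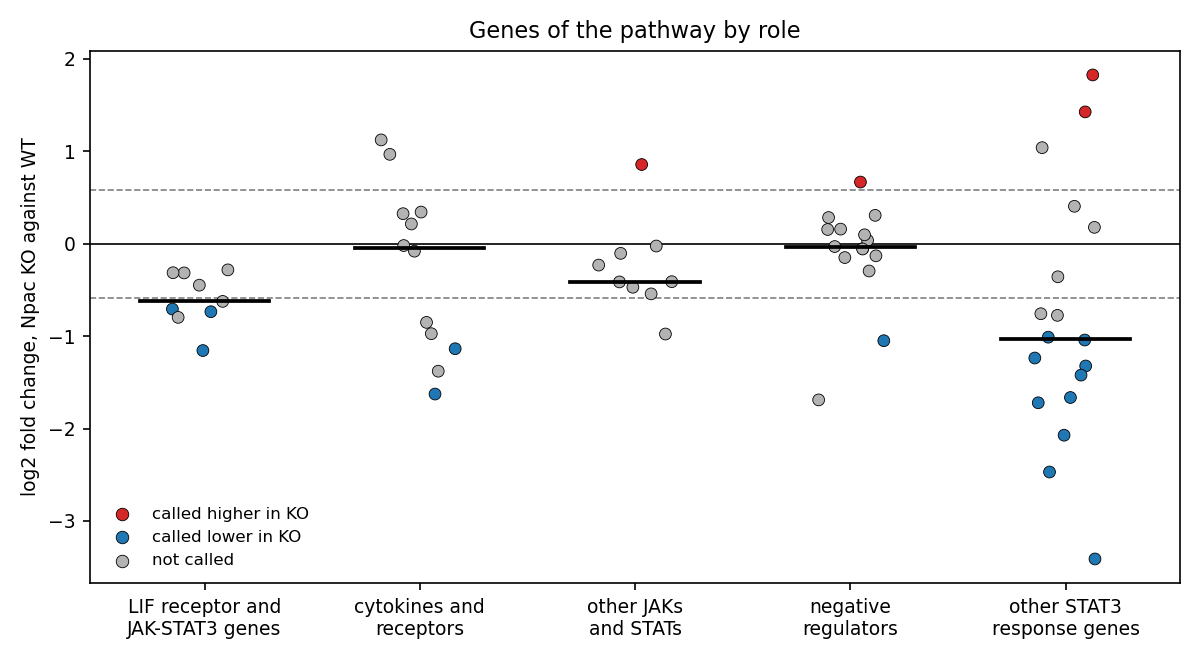
Log2 fold change of the tested genes in Npac KO against WT cells, by role, with the median of each list (black bar), down-regulated genes in blue, up-regulated genes in red and genes past neither or only 1 threshold in grey; dashed lines mark a 1.5-fold change. The medians are -0.62 for the 9 genes, -0.050 for cytokines and receptors, -0.41 for other JAKs and STATs, -0.031 for negative regulators and -1.03 for other STAT3 response genes.

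Among cytokines and receptors, 2 of 12 tested genes were down-regulated and none was up-regulated, beside 10.7% and 11% of all tested genes. Cntfr, the receptor chain for ciliary neurotrophic factor, which signals together with the LIF receptor and gp130, had 17.6 and 21.0 CPM in WT1 and WT2 and 5.15 and 7.34 CPM in KO1 and KO2 (log2 fold change -1.63, SE 0.31, edgeR adjusted p = 0.0114). Il6ra, the receptor chain for interleukin-6, had 9.17 and 8.87 CPM in WT and 3.86 and 4.33 CPM in KO cells (log2 fold change -1.14, SE 0.34, edgeR adjusted p = 0.0488). Il6ra no longer passed with upper-quartile factors, with chromosome medians removed or in limma-trend on FPKM without a filter. Its FPKM were too low for limma-trend with a filter. Without KO1 neither gene passed, and without KO2 Cntfr alone did. Lif itself, on chromosome 11, was read at a low level, with 42 and 69 reads in WT1 and WT2 and 119 and 95 reads in KO1 and KO2. Its log2 fold change of 0.97 did not pass (SE 0.41, edgeR adjusted p = 0.124). With chromosome medians removed it was 0.47 (SE 0.40, edgeR adjusted p = 0.442). Il6 had 0 reads in every library.

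Of the other JAKs and STATs, 7 of 9 had both KO libraries below both WT libraries (32.5% over all tested genes). Stat2 alone passed, in the other direction. With chromosome medians removed, 2 genes of this list passed downwards and 1 upwards. Among those lower was Jak3, on chromosome 8, at -0.92 (SE 0.19, edgeR adjusted p = 0.0182). Before that removal Jak3 was at -0.41 (SE 0.19, edgeR adjusted p = 0.161) and did not pass. Stat2, a factor of the interferon response, had 36.0 and 48.5 CPM in WT1 and WT2 and 73.5 and 79.7 CPM in KO1 and KO2 (log2 fold change 0.86, SE 0.21, edgeR adjusted p = 0.0265), and it no longer passed with either KO library left out. Stat6 was the most abundant gene of this list in WT cells by FPKM (15.8 FPKM), and its log2 fold change was -0.54 (SE 0.21, edgeR adjusted p = 0.0971).

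Of 15 negative regulators, Socs5 was down-regulated and Socs7 up-regulated. Socs5 had 18.7 and 19.6 CPM in WT1 and WT2 and 8.81 and 9.65 CPM in KO1 and KO2 (log2 fold change -1.05, SE 0.26, edgeR adjusted p = 0.0268). Socs7, on chromosome 11, had 57.0 and 51.0 CPM in WT and 86.2 and 85.3 CPM in KO cells (log2 fold change 0.67, SE 0.18, edgeR adjusted p = 0.0353), and its log2 fold change was 0.17 with chromosome medians removed. Neither passed with KO1 or KO2 left out, and Socs7 did not pass without WT2. Socs2 had the largest change of the list in size, -1.69 on the log2 scale (SE 0.53, edgeR adjusted p = 0.0561), but its WT libraries stood apart at 142 and 38.9 CPM, against 33.4 and 22.5 CPM in KO cells. Without WT1 it was -0.51, smaller in size than that of Socs5, and without WT2 it was -2.35. Pias2, the most abundant of the list by FPKM in both genotypes, had 40.7 FPKM in WT and 41.6 FPKM in KO cells.

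Among other genes known to respond to STAT3, 10 of 18 were down-regulated and 2 up-regulated, against 10.7% and 11% of all tested genes, and 12 had both KO libraries below both WT libraries, against 32.5%. Klf5, a Krüppel-like factor of the naive state and the most abundant gene of this list in WT cells by FPKM, fell furthest, from 1552 and 770 CPM in WT1 and WT2 to 100 and 118 CPM in KO1 and KO2. Its log2 fold change was -3.41 (SE 0.35, edgeR adjusted p = 0.00142). Bcl6, a transcriptional repressor, fell from 19.3 and 18.4 CPM to 3.02 and 3.76 CPM (log2 fold change -2.47, SE 0.31, edgeR adjusted p = 0.00296). Junb, an AP-1 factor, fell from 61.0 and 64.8 CPM to 16 and 13.9 CPM, although it lies on chromosome 8, whose genes were also higher as a group (log2 fold change -2.07, SE 0.20, edgeR adjusted p = 0.00119). These 3 genes passed under all 14 alternative settings.

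Fos, another AP-1 factor, fell by 1.72 on the log2 scale (SE 0.42, edgeR adjusted p = 0.0268), and Cebpb, a factor of the acute-phase response, fell by 1.66 (SE 0.30, edgeR adjusted p = 0.0101). The others that passed downwards were Bcl3, Klf4, Tfcp2l1, Icam1 and Bcl2l1, with log2 fold changes between -1.42 and -1.01. Bcl2l1 encodes an anti-apoptotic protein, and its level fell from 62.7 and 65.0 CPM to 34.4 and 29 CPM. Mcl1, also anti-apoptotic and the most abundant gene of this list in KO cells by FPKM, had 423 and 309 CPM in WT and 413 and 415 CPM in KO cells, and its log2 fold change was 0.18 (SE 0.21, edgeR adjusted p = 0.574).

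The 2 genes that rose were Pramel7 and Ccnd1. Pramel7 rose from 18 and 12 reads in WT1 and WT2 to 58 and 50 reads in KO1 and KO2 (log2 fold change 1.83, SE 0.51, edgeR adjusted p = 0.0411). Ccnd1, which encodes cyclin D1, rose from 24.5 and 12.2 CPM to 58.4 and 40.0 CPM (log2 fold change 1.43, SE 0.35, edgeR adjusted p = 0.0268). The list depended on the number of KO libraries. Of its 12 genes 6 passed without KO1 and 9 without KO2, while its median log2 fold change lay between -1.14 and -0.94 as each library was left out.

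**Figure D4:**
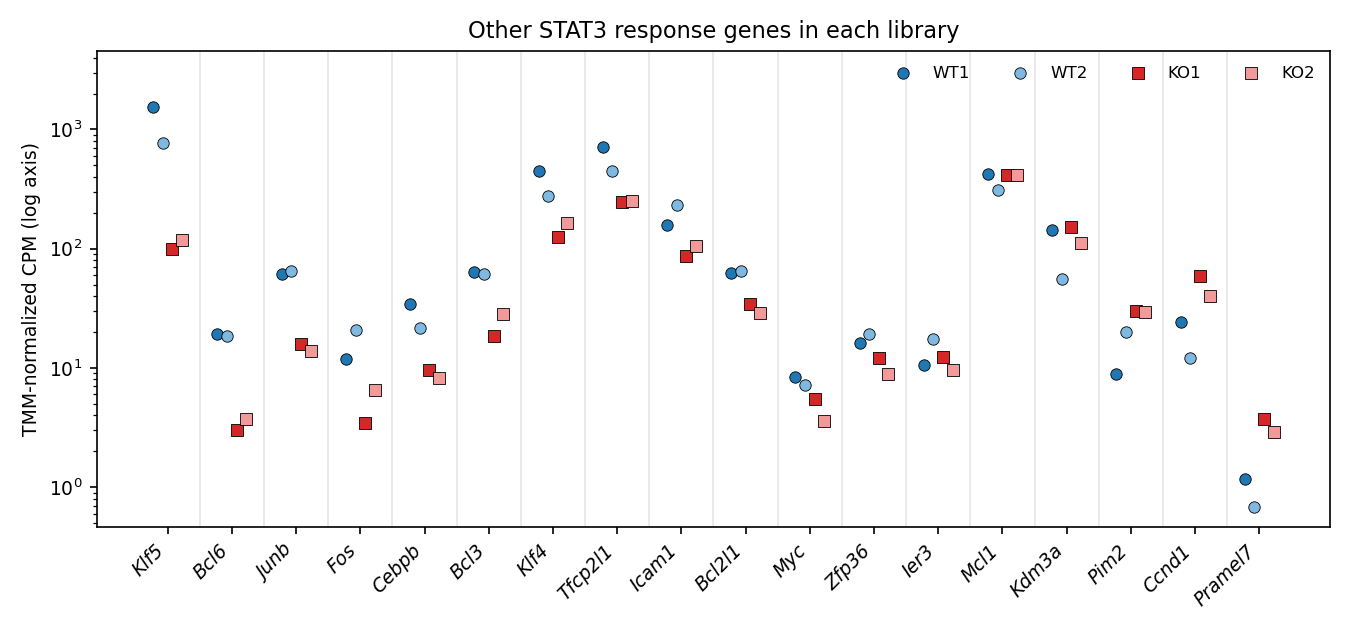
TMM-normalized CPM (log axis) of 18 other STAT3 response genes in each library, ordered by log2 fold change, with circles for WT and squares for Npac KO cells. Klf5 at the left falls from 1552 and 770 CPM to 100 and 118 CPM, the groups overlap for Ier3, Mcl1 and Kdm3a, and Ccnd1 and Pramel7 at the right rise.

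In the 20 promoter windows of this list, found for 15 of its 18 genes, 5 windows of 4 genes held TTCNNNGAA, beside 8.30% of all windows. Whether these shares differ was not tested. Bcl6 held the most, with 3 matches in the window of its downstream start and 1 in that of its upstream start, and the former is shown because 2 of its matches, TTCCTGGAA and TTCCGGGAA, also fit the stricter letters. The stretch before that start lies at chr16:23981284-23981533 on the minus strand (GRCm38.p6, RefSeq).
Bcl6: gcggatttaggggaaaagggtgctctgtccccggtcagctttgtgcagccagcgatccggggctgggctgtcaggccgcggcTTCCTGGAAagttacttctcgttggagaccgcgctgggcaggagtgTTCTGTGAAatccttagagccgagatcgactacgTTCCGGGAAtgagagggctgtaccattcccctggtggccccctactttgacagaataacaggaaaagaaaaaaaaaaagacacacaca
Icam1 held 1 match, TTCCCGGAA, 42 bases before its start. Kdm3a and Zfp36 held 1 match each, that of Zfp36 inside an annotated exon. Neither gene passed the test, with log2 fold changes of 0.41 and -0.76. Kdm3a had 144 and 55.8 CPM in WT1 and WT2 and 152 and 113 CPM in KO1 and KO2, so the sign of its value (SE 0.40) rested on WT2. Klf5 had no window in the table, and Junb had one without a match. Beside the same 8.30%, TTCNNNGAA was in 0 of 17 windows of the cytokines and receptors, of which several of Cntfr overlap. The other JAKs and STATs had it in 0 of 11 windows and the negative regulators in 1 of 9. That was the window of Cish, a further SOCS-family inhibitor, with 2 matches, of which TTCCTGGAA also met the stricter letters. Both lie in annotated exons, at the start and after it. Cish had 6.94 and 6.64 CPM in WT1 and WT2 and 6.24 and 7.05 CPM in KO1 and KO2, and its log2 fold change of -0.031 did not pass (SE 0.33, edgeR adjusted p = 0.959).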

How the data were processed

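The authors aligned their reads with HISAT and counted them per gene; the deposited counts are raw, and the submitters' processing notes name HISAT2 2.0.5, featureCounts 1.5.0-p3 and mm10. The strand setting is not given in the sources used here. The deposited FPKM values equal these counts per gene length and scaled library size. Listed gene positions equalled those of GENCODE on GRCm38 for only 1472 of 52073 matched genes, so their build is taken as unnamed; promoter positions are those of RefSeq on GRCm38.p6. Depth was 15850805 to 16965120 counts per library.

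Counts were tested in R 4.3.3 with edgeR 4.0.16 (filterByExpr, TMM, quasi-likelihood test, Benjamini-Hochberg adjustment over 18157 genes), after checks on simulated counts. SE and 95% intervals come from the fit, and Poisson intervals cover counting error only. The p-values set the difference between genotypes against the spread within each pair of libraries, estimated with information shared across genes. For the WT pair that spread may be technical. Alternatives used DESeq2 1.42.0, limma 3.58.1 (limma-trend on FPKM), other factors and filters, a replicate block, removal of chromosome medians, and each library left out. The FPKM minimum for limma was raised from 0.1 to 1 after the checks failed at 0.1 and values at 0.1 had been seen. Named were the 9 genes, Glyr1, the 3 nearest profiles, and from each list the genes past both thresholds (at most 5 by size) and the most abundant. Other genes were named after their values were seen. The genes and lists were chosen with earlier results of these data known. A result on 1 gene of the lists is not reported here.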

Additional observations from a re-analysis of the deposited data

How the results depend on the processing

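Of 126 log2 fold changes of the 9 genes under 10 other settings and with each of 4 libraries left out, 125 were below 0; the exception was Il6st without WT1, at 0.053. Pim3 passed both thresholds under all 14. With no filter on FPKM, limma-trend called 1157 genes in all (against 3945), 1 of the 9 genes (against 3) and 5 of the further pathway genes (against 17); Lifr was at -0.71 (adjusted p = 0.099) and Stat3 at -0.74 (adjusted p = 0.075), and neither passed. With a filter, limma-trend gave Lifr -0.71 with a pseudocount of 0.1 and -0.64 with a pseudocount of 1, neither past the threshold. Without the filter on low counts Spp1 passed, at -0.62 (adjusted p = 0.0237, edgeR), and with chromosome medians removed Socs3 passed, at -0.81. Over the 10 settings the adjusted p lay between 0.0103 and 0.099 for Lifr, 0.00628 and 0.075 for Stat3, 0.026 and 0.417 for Socs3 and 0.0237 and 0.287 for Spp1. The cause of these shifts was not tested.

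With each library left out, the calls ranged from 1647 to 6955 over all genes, from 1 to 6 of the 9 genes and from 7 to 21 of the further pathway genes; they were lowest with 1 KO library, assumed to vary like the WT pair, and the 6 came without WT2. The log2 fold changes ranged from -0.84 to -0.58 for Lifr, -0.69 to 0.053 for Il6st, -0.83 to -0.67 for Stat3, -0.46 to -0.19 for Socs3, -0.63 to -0.27 for Pim1 and -0.93 to -0.27 for Spp1. The labels give both genotypes the numbers 1 and 2 but do not say that a number marks a shared culture or day; the WT1 - WT2 and KO1 - KO2 differences correlated at 0.33 across genes. With the replicate number as a block, 6122 genes were called, and 3 of the 9. The lowest counts of the 9 genes were those of Gbx2, 53 to 121 reads.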

Other observations

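Several of the 9 genes share bases with other annotated genes, and the strand setting of the counting is not given. Stat3 and Stat5a lie on opposite strands and overlap by 72 bases at their ends, and Stat5a had 237 and 291 reads in WT1 and WT2 and 222 and 300 reads in KO1 and KO2. Pim1 overlaps the antisense lncRNA Gm26885 over 1173 bases, and that RNA had 7 and 5 reads in WT and 19 and 26 reads in KO cells (log2 fold change 1.86, edgeR adjusted p = 0.0577), against 1715 to 2727 reads of Pim1. Gbx2 overlaps the antisense lncRNA D130058E05Rik over 964 bases. That RNA had 87 and 88 reads in WT and 61 and 67 reads in KO cells, against 100 and 121 reads and 53 and 75 reads of Gbx2.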
